A study of Mus musculus with 10 samples.

Results

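Collagen chains are the polypeptides of the collagen triple helix, and their genes were taken from the table of TPM, a measure of transcript abundance corrected for transcript length and library size, as every gene whose symbol is Col, a number, the letter a and a number. The rule found 44 of the 55426 genes in the table, and it used no measured value. The chains were read in thoracic aortas of 3 control mice, Prdm16f/f without a Cre, and of 3 Prdm16SMKO mice, Prdm16f/f with SMMHC-CreERT2, all on a C57BL/6J background. SMMHC-CreERT2 is a tamoxifen-inducible Cre under the promoter of Myh11, the smooth muscle myosin heavy chain, so that the floxed Prdm16, a gene for a transcriptional regulator, is lost in smooth muscle and kept in other cells. By the methods of the study, mice of this Cre line are male, and tamoxifen was given at 8 weeks of age, at 75 mg/kg/day for 5 days, followed by 2 weeks without it. Whether the sequenced controls received tamoxifen and the age at collection are not given in the sources used here. The same genes were placed against PRDM16 ChIP-Seq peaks from primary wild-type vascular fibroblasts, which received a lentivirus with PRDM16 bearing a Flag tag, or the vector, for 48 hours and then 1 week of 2 µg/mL puromycin. There was 1 anti-Flag library per condition. The comparison of the aortas asks which collagen chains differ once Prdm16 is deleted in smooth muscle. The Cre, and possibly tamoxifen, differ between the groups together with the deletion, and their effects cannot be told apart here. The peaks ask which collagen promoters PRDM16 occupies when it is supplied to fibroblasts.

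Each collagen molecule is a triple helix of chains, and the molecules fall into classes by what they build. Fibrillar collagens form the load-bearing fibres of the arterial wall, network collagens form sheets such as the basement membrane around each smooth muscle cell, and FACIT collagens (fibril-associated collagens with interrupted triple helices) sit on the surface of fibrils. The other chains include collagen VI, which forms beaded microfibrils, and the multiplexins XV and XVIII of the basement membrane zone. In the artery, smooth muscle cells of the media and fibroblasts of the adventitia both make collagen.

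Prdm16, the deleted gene, was read first as a check of the labels. Control aortas had 56.1, 47.6 and 40.3 TPM and Prdm16SMKO aortas 23.3, 33.3 and 23.4 TPM, so the groups did not overlap. The log2 fold change was −0.85 (limma adjusted p = 0.0725). This missed the threshold of 0.05. The RNA was from the whole aorta, with cells that do not carry the deletion, and their part in the remaining Prdm16 was not tested. TPM keep no read depth, so no counting interval is given. The most abundant gene took 20.2% to 28.2% of the TPM of an aorta and mitochondrial genes 14.7% to 26.5%, and the median log2 fold change over the 15668 genes tested was −0.12 rather than 0. With the aortas rescaled by median ratio this median was 0.00.

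Of the 44 collagen chains, 33 had the mean TPM of at least 0.5 needed for testing. In Prdm16SMKO aortas Col18a1 and Col3a1 fell to 50.2% and 54.0% of the control mean, and Col14a1 rose to 195%. These 3 of 33 chains passed an adjusted p of 0.05, where 1.07% of all genes tested passed. Of them, 2 were lower, against 0.683% of all genes, and 1 was higher, against 0.389%. A further 9 chains, and 12 of 33 in all, had an unadjusted p under 0.05, against 12.7% of all genes. With limma's moderated variance without a trend none passed, at adjusted p of 0.0846 for Col18a1, 0.172 for Col3a1 and 0.128 for Col14a1. Without the filter on TPM, Col18a1 alone of the chains passed, with 0.0954 for Col3a1 and 0.0507 for Col14a1. In bulk tissue, fewer cells of a type and less RNA per cell cannot be told apart.

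The 3 values of a group lay wholly outside those of the other for 11 chains, against 19.0% of all genes tested. In 10 of them Prdm16SMKO was the lower group, against 14.9% of all genes, and in 1 the higher, against 4.08%. Over the 33 chains the median log2 fold change was −0.14, beside −0.12 for all genes. Of all genes tested 67.9% were negative, and of the chains 23 were negative and 10 positive. After median ratio rescaling 17 were negative and 16 positive with a median of −0.03, so the split of the chains into lower and higher depended on the scaling. The 11 chains below the filter had mean TPM from 0.00833 to 0.373 and were not tested. They are Col10a1, Col13a1, Col11a1, Col9a1, Col17a1, Col6a5, Col9a2, Col6a4, Col24a1, Col26a1 and Col25a1.

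**Figure D1:**
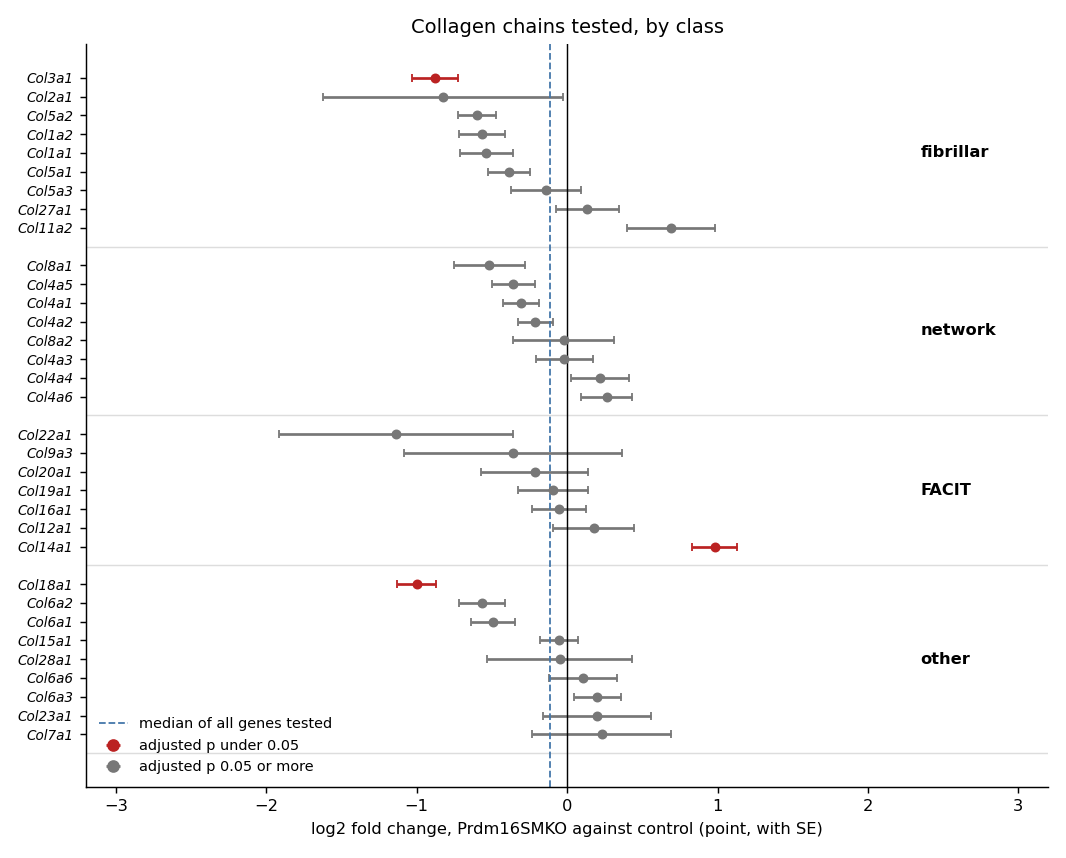
Log2 fold change of the 33 tested collagen chains, Prdm16SMKO against control (3 aortas each, log2(TPM + 0.1)), with its SE, grouped by class on the vertical axis. Red points passed an adjusted p of 0.05 (Col3a1, Col14a1 and Col18a1), and the dashed line is the median of all genes tested at −0.12.

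Of 11 fibrillar chains, 9 were tested, 1 fell and none rose, and 4 of the 9 had groups that did not overlap, all lower in Prdm16SMKO. Of all genes tested 0.683% fell and 14.9% were lower without overlap. The median log2 fold change was −0.54, beside −0.12 for all genes tested. Col3a1, the single chain of collagen III and a main component of extensible vessel walls, lies at 45311538 to 45349706 on the plus strand of chromosome 1 (GRCm38). Its TPM were 865, 598 and 717 in control and 445, 373 and 359.8 in Prdm16SMKO aortas. The highest Prdm16SMKO value stayed below the lowest control value, with a log2 fold change of −0.88 ± 0.15 (SE) and a limma adjusted p of 0.0354. Without control aorta 1 or 3, or Prdm16SMKO aorta 2 or 3, the adjusted p was 0.093, 0.12, 0.0926 and 0.0914. Its exons overlap those of Gm47302 on the same strand, whose reads cannot be told apart from its own by position alone.

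Collagen I, the most abundant fibril-forming collagen, is built from Col1a1 and Col1a2. Col1a2 (chromosome 6, 4504814 to 4541544) had the highest mean TPM of all chains over the 6 aortas, while the control means were 749 for Col18a1, 727 for Col3a1 and 725 for Col1a2. Its TPM were 859, 636 and 679 in control and 568, 486 and 417 in Prdm16SMKO aortas, with no overlap. The log2 fold change of −0.56 missed the threshold (limma adjusted p = 0.155). Col1a1 (chromosome 11, 94936224 to 94953042) had TPM of 518, 363 and 401 in control and 365, 269 and 252 in Prdm16SMKO. Here the highest Prdm16SMKO aorta lay just above the lowest control aorta, and the adjusted p was 0.243.

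Collagen V, which starts and limits the width of collagen I fibrils, was also read from its separate chains. Col5a2 (chromosome 1, 45374321 to 45503282) had TPM of 116, 93.4 and 103 in control and 72.0, 71.4 and 62.2 in Prdm16SMKO aortas. The groups did not overlap, and the log2 fold change of −0.60 had a limma adjusted p of 0.066, just over the threshold. With the aortas rescaled by median ratio or quantile, or with nuclear genes alone, the p was 0.0336, 0.0374 and 0.0226. Col5a1 (chromosome 2, 27886425 to 28039514) had TPM of 243, 195 and 193 in control and 163, 180.3 and 138 in Prdm16SMKO (log2 fold change −0.39, limma adjusted p = 0.285), and it shares exon positions with genes on the opposite strand. The groups of Col5a1 did not overlap either.

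The remaining fibrillar chains were scarce. Col27a1 stood at 9.33 to 15.3 TPM in control and 11.9 to 16.4 in Prdm16SMKO aortas, Col5a3 at 2.29 to 3.34 and 2.44 to 2.93, and Col2a1, the cartilage fibril chain, at 0.63 to 0.94 and 0.05 to 1.3. In each of these the groups overlapped and the adjusted p was over 0.7. Col11a2, a minor chain of fibrils in cartilage, had TPM of 1.61, 2.12 and 1.56 in control and 3.33, 2.01 and 3.56 in Prdm16SMKO aortas, which overlapped (log2 fold change 0.69, limma adjusted p = 0.367).

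**Figure D2:**
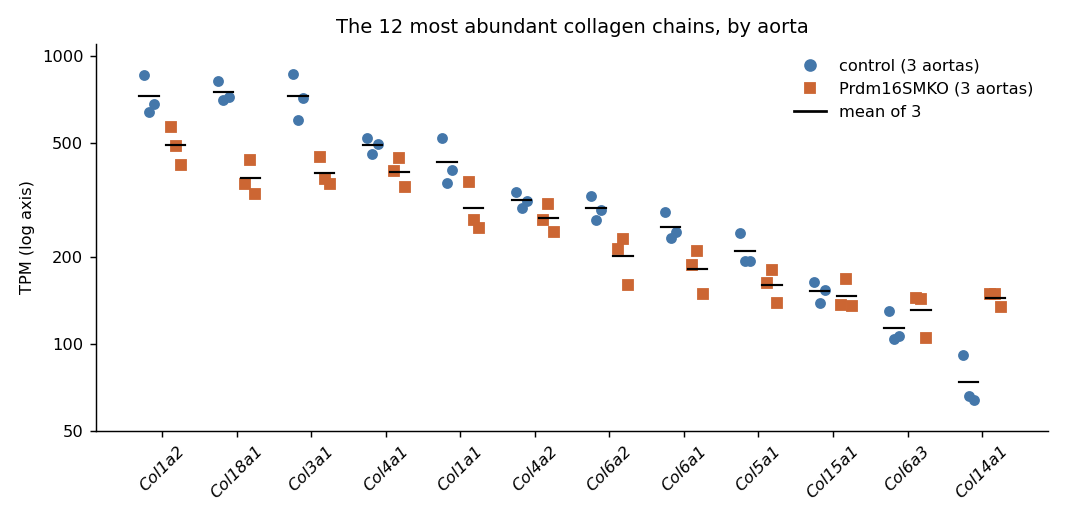
TPM of the 12 collagen chains with the highest mean (log axis), with 1 point per aorta for 3 control (circles) and 3 Prdm16SMKO aortas (squares) and the mean as a bar. Col18a1 and Col3a1 fell and Col14a1 rose past an adjusted p of 0.05, and the groups of Col1a1, Col4a2, Col15a1 and Col6a3 overlap.

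Of 9 network chains 8 were tested and none passed an adjusted p of 0.05 by limma, while 2 had an unadjusted p under 0.05, against 12.7% of all genes. In 3 the groups were separate, each lower in Prdm16SMKO, against 14.9% of all genes, and the median log2 fold change was −0.12, as was that over all genes to 2 decimals. Col4a1, which with Col4a2 makes the common collagen IV of basement membranes, had TPM of 517, 456 and 493 in control and 397, 443 and 349 in Prdm16SMKO aortas. These groups were close but separate, with a log2 fold change of −0.31 and an adjusted p of 0.325. Col4a2 had TPM of 337, 296 and 312 in control and 270.03, 306 and 244 in Prdm16SMKO. These overlapped, with a log2 fold change of −0.21 and an adjusted p of 0.493.

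Col4a1 (chromosome 8, 11198423 to 11312826, minus strand) and Col4a2 (11312805 to 11449287, plus strand) are transcribed away from each other and their first exons overlap. Col4a5 and Col4a6 are also neighbours transcribed away from each other, on chromosome X and without an overlap of exons, and build the collagen IV found around smooth muscle. Col4a5 (141475385 to 141689234) had TPM of 113, 90.1 and 93.7 in control and 78.7, 87.8 and 65.7 in Prdm16SMKO aortas, without overlap (log2 fold change −0.36, limma adjusted p = 0.348). Col4a6 had 62.6 to 81.7 TPM in control and 69.7 to 102 in Prdm16SMKO, and these overlapped. Col8a1 (chromosome 16, 57624258 to 57754737), of the short-chain network collagen VIII, had TPM of 3.57, 3.05 and 2.87 in control and 2.02, 1.89 and 2.68 in Prdm16SMKO. Its groups did not overlap, but the adjusted p was 0.409 and the TPM were low.

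Of the FACIT class 7 of the 9 chains in the table were tested, 1 rose and none fell, where 0.389% of all genes rose, and the median log2 fold change was −0.10. Col14a1 (chromosome 15, 55307750 to 55520803) codes for collagen XIV, which binds the surface of collagen I fibrils. Its TPM were 91.5, 66.1 and 63.9 in control and 149, 149 and 134 in Prdm16SMKO aortas. Every Prdm16SMKO aorta exceeded every control aorta, with a log2 fold change of +0.98 ± 0.15 (SE) and a limma adjusted p of 0.02. Without control aorta 2 or 3, or Prdm16SMKO aorta 1 or 2, the adjusted p was 0.0778, 0.0898, 0.0741 and 0.0642.

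Col14a1 was the sole chain with non-overlapping groups that was higher in Prdm16SMKO, and it made up 71.3% to 73.1% of FACIT TPM in control and 83.6% to 84.9% in Prdm16SMKO aortas. The other FACIT chains summed to 36.8, 24.3 and 25.7 TPM in control and 29.2, 28.9 and 23.8 in Prdm16SMKO, which overlapped. Collagen XII (Col12a1), the closest relative of collagen XIV, had 2.71 to 5.63 TPM in control and 3.89 to 4.87 in Prdm16SMKO. Col19a1 had 3.34 to 4.35 and 2.67 to 4.27 TPM. Neither passed the test, and the difference between Col14a1 and Col12a1 was not tested. Fibroblast markers, summed over 9 genes, ran from 981 to 1134 TPM in control and 863 to 1293 in Prdm16SMKO. None of the 9 passed the test. In the main fit the log2 fold change was positive for 4 of them, Lum, Pdgfra, Dcn and Dpt. It was negative for the other 5, Pi16, Ly6a, Clec3b, Serpinf1 and Dpep1. After median ratio rescaling 8 were positive and 1 negative, beside 7847 positive and 7798 negative among all genes tested.

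Of 15 other chains 9 were tested, 1 fell and none rose, where 0.683% of all genes fell, and the median log2 fold change was −0.05. Col18a1 (chromosome 10, 77052178 to 77166548, minus strand), the chain of collagen XVIII and the source of endostatin, had the lowest adjusted p of all the chains. Its TPM were 821, 705 and 721 in control and 360.4, 436 and 331 in Prdm16SMKO aortas. The groups were well apart, with a log2 fold change of −1.0005 ± 0.129 (SE) and a limma adjusted p of 0.00909. Leaving out any one aorta kept the adjusted p at or below 0.0459. Col18a1 held 14.8% to 16.1% of the collagen TPM in control and 9.7% to 11.7% in Prdm16SMKO aortas. More than 1 promoter is annotated for it and TPM per gene do not separate them. Col15a1 (chromosome 4, 47208161 to 47313167), the other multiplexin, had TPM of 165, 138 and 153 in control and 136, 169 and 135 in Prdm16SMKO. These overlapped, with a log2 fold change of −0.06 and an adjusted p of 0.895, and the difference from Col18a1 was not tested.

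Collagen VI is assembled from Col6a1, Col6a2 and a longer chain such as Col6a3. Col6a2 (chromosome 10, 76595762 to 76623630) had TPM of 327, 269 and 292 in control and 213, 231 and 161 in Prdm16SMKO aortas (log2 fold change −0.57, limma adjusted p = 0.146). Col6a1 (chromosome 10, 76708792 to 76726168) had TPM of 287, 233 and 245 in control and 187, 209.8 and 149 in Prdm16SMKO (log2 fold change −0.49, limma adjusted p = 0.199). Both chains had groups that did not overlap. Col6a3 (chromosome 1, 90765923 to 90843971) had TPM of 130, 104 and 106 in control and 145, 143 and 105 in Prdm16SMKO. Its groups overlapped and its log2 fold change was +0.20 (limma adjusted p = 0.631).

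A promoter peak is a PRDM16 anti-Flag peak whose centre lies within 2 kb of a RefSeq start site of the gene. Of the 44 collagen chains 12 had one (27.3%), and all 12 were among the 33 tested chains, beside 43.8% of all tested genes with a start site and 29.3% of all genes of the table with one. The vector library, with 67 peaks against 11271 for PRDM16, had none at these genes. The 12 were Col1a2, Col3a1, Col5a1, Col5a3, Col27a1 and Col2a1 of the fibrillar class, Col4a1, Col4a2 and Col8a1 of the network class, Col12a1 and Col19a1 of the FACIT class, and Col23a1, a membrane collagen of 1.15 to 2.51 TPM in the 6 aortas. Of the 3 chains that passed the limma test used here, Col3a1 had a promoter peak and Col18a1 and Col14a1 had none. Within 1 kb of a start site 11 chains had a peak, and Col3a1 was not among them. The study's own list of differentially expressed genes with a promoter peak holds Col1a2 and Col5a1 as well as Col3a1. All 3 are listed there as lower in Prdm16SMKO, so the calls depend on the analysis. The nearest peak to Col18a1 lay 29.1 kb downstream in an intron, at 4.22-fold enrichment, and the nearest to Col14a1 lay 172.4 kb upstream.

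The sequences that follow show the contrast in base composition among the collagen peaks. They are from GRCm38, read 5′ to 3′ on the plus strand, and capitals mark each CpG, the dinucleotide that is dense in many vertebrate promoters. The first 2 are the 121 bases around a peak summit and the last is the 250 bases before the start site of Col5a1 in the RefSeq promoter table, where 35 of the 44 chains were found. Col3a1 is shown as the chain with a peak that fell past the limma threshold. Col4a1/Col4a2 is shown as the promoter that a pair of chains shares, and Col5a1 as a chain whose peak covers a promoter with many CpG.
Col3a1, chr1:45313226-45313346: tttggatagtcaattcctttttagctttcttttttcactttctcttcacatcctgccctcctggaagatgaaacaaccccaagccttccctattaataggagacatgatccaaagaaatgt
Col4a1/Col4a2, chr8:11312344-11312464: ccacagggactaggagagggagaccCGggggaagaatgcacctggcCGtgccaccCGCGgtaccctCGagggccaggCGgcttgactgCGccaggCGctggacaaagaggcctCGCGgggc
Col5a1, chr2:27886175-27886424: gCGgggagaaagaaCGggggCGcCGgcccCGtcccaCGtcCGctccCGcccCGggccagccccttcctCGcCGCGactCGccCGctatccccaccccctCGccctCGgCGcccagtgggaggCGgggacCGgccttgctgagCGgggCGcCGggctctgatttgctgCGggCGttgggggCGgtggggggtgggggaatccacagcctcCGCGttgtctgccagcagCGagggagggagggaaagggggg

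The Col3a1 stretch of 121 bases holds no CpG and the shared Col4a1/Col4a2 stretch of the same length 10. The longer Col5a1 stretch of 250 bases holds 28, and the 121 bases around the Col5a1 summit hold 13. In the 300 bases around the summit the Col3a1 peak was 38.0% G+C, where the median PRDM16 peak was 63.3% G+C with 19 CpG, and 211 of 11258 peaks (1.87%) had no CpG. This peak (45313187 to 45313472) lay in an intron with its centre 1.8 kb downstream of the start site and did not cover it, at 5.27-fold enrichment, which is also the median of all PRDM16 peaks. The other collagen peaks held between 6 and 47 CpG in 300 bases.

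The peak between Col4a1 and Col4a2 (11312092 to 11313873) was 1782 bases long, covered the start sites of both genes and had 6.05-fold enrichment. The Col5a1 peak (27886038 to 27887621) covered its start site at 7.44-fold. The peak at Col12a1 (chromosome 9, 79717814 to 79719352) was the strongest of the collagen promoter peaks at 9.33-fold, above 95.7% of all PRDM16 peaks, and covered the start site. The Col8a1 peak (57754657 to 57755499) reached 5.98-fold and the Col19a1 peak 5.63-fold. The Col1a2 peak (4505201 to 4505448), centred 293 bp before the RefSeq start site, had 4.92-fold enrichment. It lies inside the gene as GENCODE places it, with its summit in an exon. Col23a1 at 4.65-fold and Col27a1 at 3.91-fold followed, Col5a3 had 2 peaks at 4.75-fold and 4.05-fold, and Col2a1 had the weakest at 2.94-fold. The −log10 q of the Col2a1 peak was 1.97, short of the q of 0.01 given in the methods, and at a q of at most 0.001 it was the one chain lost, leaving 11.

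Col1a1 had no promoter peak by RefSeq start sites, but 5 peaks lay within the gene, 8.2 to 14.1 kb downstream of the start site. Their enrichment ran from 4.29-fold to 7.73-fold. With the start sites of GENCODE, which include short internal transcripts, Col1a1 and Col8a2 were counted too, giving 14 chains. With the window narrowed to 1 kb upstream and 100 bp downstream 6 chains remained, without Col3a1. At a q of at most 1e-05 there were 7, with Col3a1. The motif AGATAA, sought on both strands in the 300 bases around each summit, occurred in 1 of the 12 collagen peaks, that of Col12a1, and in 6.48% of all PRDM16 peaks.

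**Figure D3:**
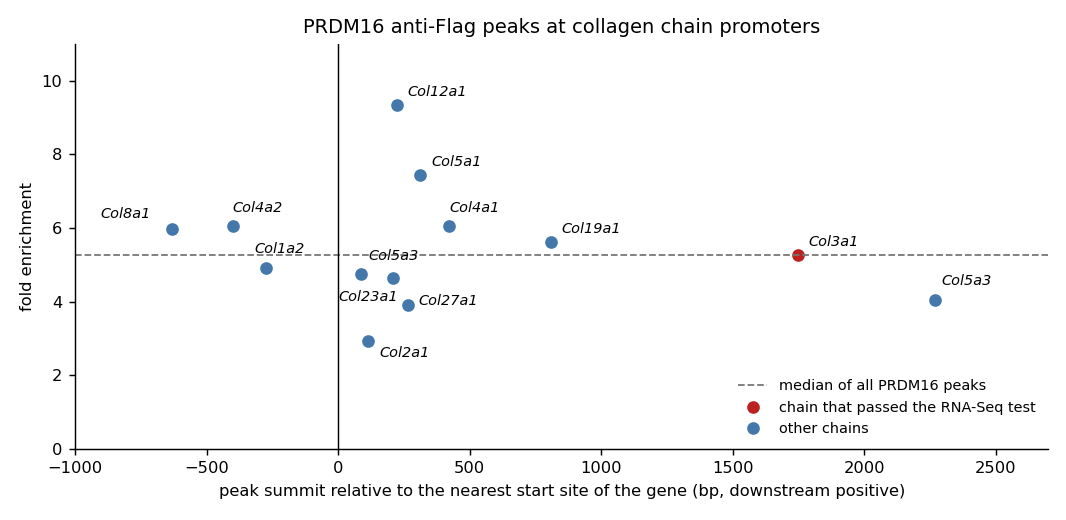
Fold enrichment of the PRDM16 promoter peaks of 12 collagen chains against the distance of the summit from the nearest start site in bp, with 1 anti-Flag library and no replicate; Col4a1 and Col4a2 are 2 points for 1 shared peak and Col5a3 has 2 peaks. Col12a1 is highest at 9.33-fold. Col3a1 (red), the chain with a peak that passed the limma test, lies at the median of all peaks (dashed line) and 1748 bp downstream.

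The summed TPM of all collagen chains was 5559, 4369.7 and 4699 in control and 3705, 3729 and 3039 in Prdm16SMKO aortas. Every Prdm16SMKO aorta lay below every control aorta, with a difference of −0.48 on the log2 scale (exact permutation test, 2-sided, p = 0.1, the smallest that 3 against 3 aortas allow). The 12 most abundant chains held 91.0% to 93.1% of this sum. Within it, the FACIT share was 2.31%, 2.07% and 1.91% in control and 4.81%, 4.78% and 5.19% in Prdm16SMKO, and the network share 20.4% ± 0.99 and 24.3% ± 1.4 (SD, n = 3 aortas each, exact permutation p = 0.1 for either share). The fibrillar share, 45.2% ± 1.83 and 40.9% ± 3.24, and the share of other chains, 32.3% and 29.9%, overlapped between the groups (exact permutation p = 0.2 for both). Without the 2 most abundant chains, Col1a2 and Col18a1, the share of other chains was 1.19 percentage points higher in Prdm16SMKO. Adjusted over the 4 classes every p was 0.2.

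Ratios of chains that assemble together do not move with the scaling of an aorta. The TPM ratio of Col6a3 to Col6a1 was 0.451, 0.446 and 0.434 in control and 0.771, 0.682 and 0.702 in Prdm16SMKO aortas, a difference of 0.69 on the log2 scale with no overlap (exact permutation p = 0.1, adjusted 0.14 over 7 ratios). The ratio of Col3a1 to Col1a1, which share mixed fibrils, was 1.67, 1.64 and 1.79 in control and 1.22, 1.39 and 1.43 in Prdm16SMKO, again without overlap. The ratios Col4a1/Col4a2, Col5a1/Col5a2 and Col6a1/Col6a2 also did not overlap, with log2 differences of −0.10, 0.21 and 0.07, and each had an exact permutation p of 0.1. Col1a1/Col1a2 ran from 0.571 to 0.603 in control and 0.553 to 0.643 in Prdm16SMKO (exact permutation p = 0.8), and Col8a1/Col8a2 overlapped as well (exact permutation p = 0.2). None of the 7 ratios could pass 0.05 at this number of aortas.

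**Figure D4:**
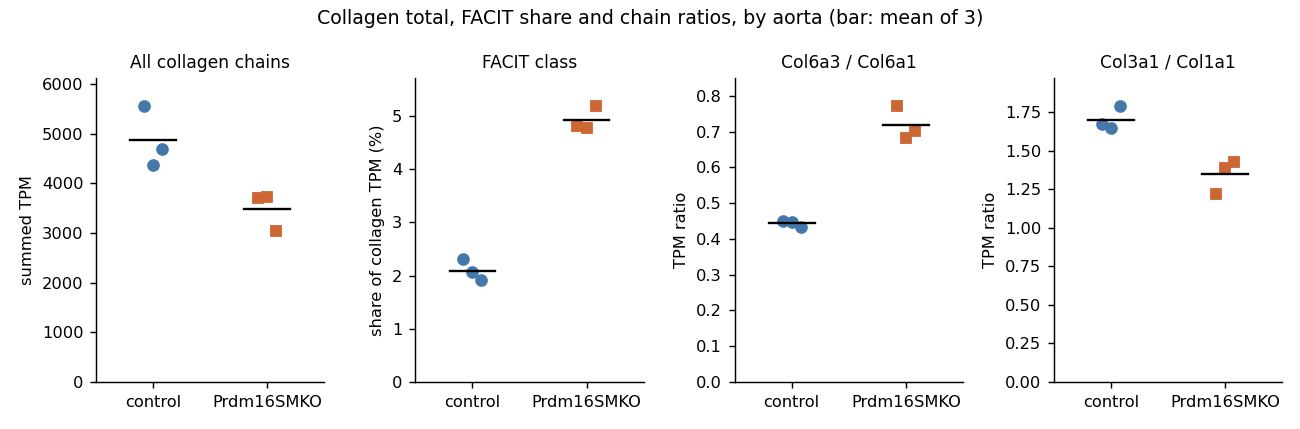
Summed collagen TPM, share of FACIT chains in it (%), and TPM ratios Col6a3/Col6a1 and Col3a1/Col1a1, with 1 point per aorta (3 control, 3 Prdm16SMKO) and the mean as a bar; axes start at 0. The groups do not overlap in any panel, and each exact permutation p is 0.1, the smallest possible.

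A list of 36 genes for prolyl and lysyl hydroxylases, chaperones, export factors, propeptide proteases and crosslinking enzymes had 32 tested members, of which 2 fell and none rose, against 1.07% of all genes tested. Of the 32, 18 had groups that did not overlap (17 lower in Prdm16SMKO, 1 higher), beside 19.0% of all genes. The median log2 fold change was −0.28, with 29 negative and 3 positive, where 67.9% of all genes tested were negative. After median ratio rescaling the median was −0.16, with 24 negative and 8 positive, beside 7798 negative and 7847 positive among all genes. Lox (chromosome 18, 52516067 to 52529867), the lysyl oxidase that crosslinks collagen and elastin, had TPM of 77.2, 61.3 and 68.8 in control and 30.3, 24.95 and 25.2 in Prdm16SMKO aortas. It fell to 38.8% of the control mean (log2 fold change −1.36 ± 0.14 SE, limma adjusted p = 0.00367), and leaving out any one aorta kept the adjusted p at or below 0.01995. A gene on the opposite strand overlaps its exons.

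Sparc (chromosome 11, 55394500 to 55423183), a collagen-binding glycoprotein that aids fibril assembly, had TPM of 1698, 1461 and 1455 in control and 1035, 985 and 827 in Prdm16SMKO aortas. It fell to 61.7% of control (log2 fold change −0.70 ± 0.12 SE, limma adjusted p = 0.0385), and without any one of the 6 aortas its adjusted p was between 0.0689 and 0.126. Serpinh1, the collagen chaperone HSP47, had 447 to 513 TPM in control and 313 to 374 in Prdm16SMKO (limma adjusted p = 0.102). P4hb, the beta subunit of prolyl 4-hydroxylase, had 233 to 263 and 170 to 225 TPM (limma adjusted p = 0.417). Loxl1, a lysyl oxidase relative needed for elastic fibres, had 191 to 247 and 128 to 155 TPM (limma adjusted p = 0.084).

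The other genes of the list whose Prdm16SMKO values lay below all control values were Ppib, Colgalt1, Adamts2, P3h4, Pcolce2, Plod3, Loxl3, Creb3l1, Plod1, Loxl2, Fkbp14 and Loxl4. Their log2 fold changes ran from −0.64 for Adamts2, a procollagen N-proteinase, to −0.19 for Ppib, a prolyl isomerase, and none passed the test. Adamts14, another procollagen N-proteinase, had TPM of 2.18, 1.47 and 1.75 in control and 3.99, 4.53 and 3.65 in Prdm16SMKO aortas. It was the one gene of the list with higher non-overlapping values (log2 fold change 1.14, limma adjusted p = 0.0649), and its adjusted p was 0.0165 after median ratio rescaling. Promoter peaks lay at 31 of the 36 genes (86.1%), Lox at 4.92-fold, Sparc at 5.63-fold and Adamts14 at 7.38-fold among them, beside 29.3% of all genes of the table. Of the 32 tested genes 28 had one, beside 43.8% of all tested genes. The study's own list of differentially expressed genes with a promoter peak holds Lox, Sparc, Loxl1, Loxl2 and Adamts2 as lower. It holds Adamts14 as higher in Prdm16SMKO.

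Of 10 collagen receptors 7 were tested and limma called none, with 1 at an unadjusted p under 0.05 and a median log2 fold change of −0.11. Of all genes 1.07% were called and 12.7% had an unadjusted p under 0.05. Itgb1, the integrin beta chain that pairs with the collagen-binding alpha chains, had 777 to 823 TPM in control and 690 to 793 in Prdm16SMKO. Ddr2, a receptor tyrosine kinase for fibrillar collagen, had 80.5 to 103 and 76.7 to 90.7 TPM, and Itga1 39.1 to 47.5 and 38.8 to 50.9 TPM. These 3 overlapped between the groups. Mrc2, an endocytic receptor that takes up collagen, had 27.8 to 33.95 and 22.9 to 26.3 TPM, and Itga10 6.26 to 8.2 and 3.76 to 5.55 TPM, both lower without overlap, as were 14.9% of all genes, and with limma adjusted p of 0.433 and 0.382. Promoter peaks lay at 5 of the 10 receptors, beside 29.3% of all genes of the table, and at 4 of the 7 tested, beside 43.8% of tested genes. The strongest was that of Mrc2 at 11.25-fold.

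**Figure D5:**
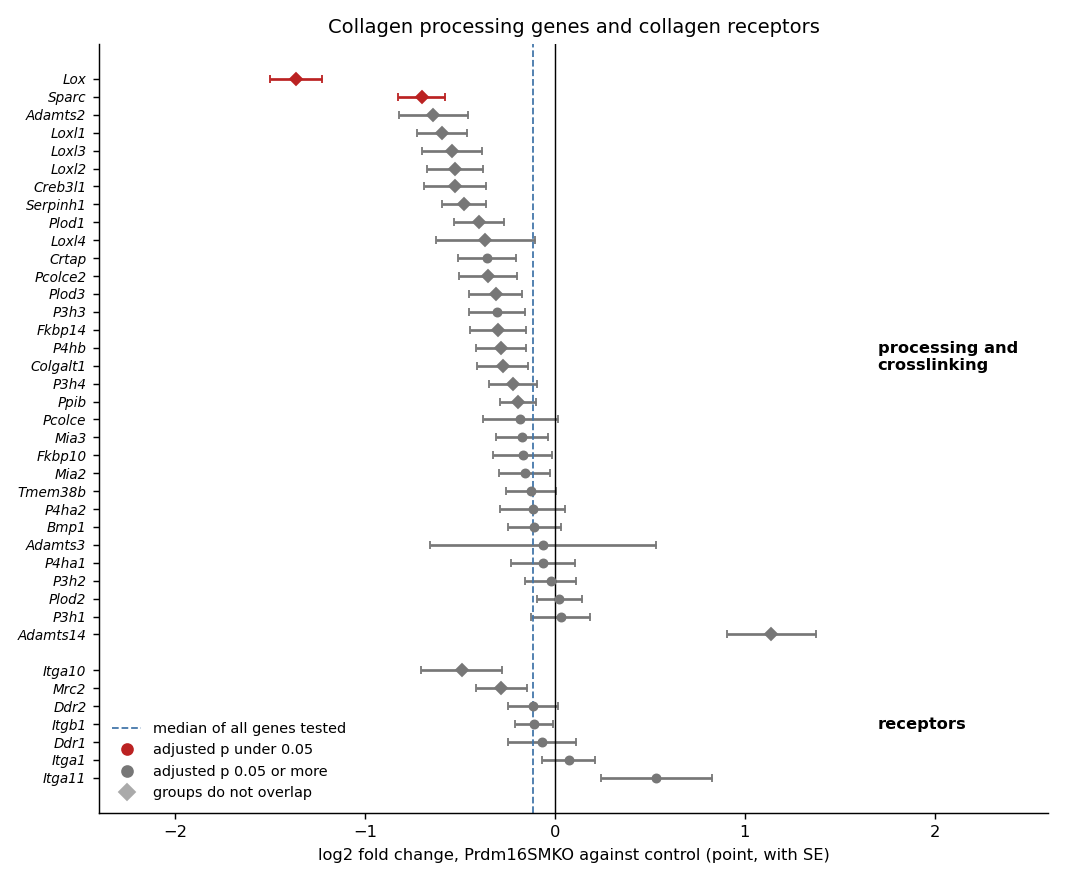
Log2 fold change of 32 tested genes that process or crosslink collagen and of 7 tested collagen receptors, Prdm16SMKO against control (3 aortas each), with its SE; diamonds mark genes whose groups do not overlap. Lox and Sparc (red) passed an adjusted p of 0.05. Most of the processing genes lie to the left of 0, as do 67.9% of all genes tested. The dashed line is the median of all genes tested.

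Markers of other cell types were read beside these values. The 7 smooth muscle markers summed to 20750 to 24190 TPM in control and 13820 to 17860 in Prdm16SMKO aortas, 6 of 7 with a negative log2 fold change, 4 lower without overlap and none past the test. Of all genes tested 67.9% were negative and 14.9% lower without overlap. Acta2, the smooth muscle actin, had 11024 to 12433 TPM in control and 6455 to 8230.2 in Prdm16SMKO. The 8 cartilage markers, read because cartilage makes fibrillar collagen, summed to 32.7 to 40.8 and 18.9 to 21.9 TPM, and 5 of them were tested. Comp, a matrix protein, passed the test (27.9, 25.3 and 21.4 TPM in control and 13.2, 11.7 and 12.3 in Prdm16SMKO, limma adjusted p = 0.0153). Acan, at 8.16 to 10.2 and 4.9 to 5.42 TPM, and Hapln1, at 1.22 to 3.19 and 0.67 to 0.85 TPM, were lower without overlap, and Epyc, at 0.32 to 0.5 and 0.56 to 1.34 TPM, was higher without overlap. Snorc overlapped, Matn3 and Cnmd were below the filter, and Matn1 was listed at 0 in every aorta. The 4 mesothelium markers summed to 0.27 to 2.99 and 3.74 to 5.01 TPM, with no single value over 2.18 TPM. Of these, 3 were tested and none passed. Krt19 was higher without overlap, as were 4.08% of all genes, Upk3b and Msln overlapped, and Wt1 was below the filter. Endothelial, macrophage, adipocyte, Schwann cell and skeletal muscle sums overlapped between the groups. The part of these markers in the collagen values was not tested.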

How the data were processed

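Thoracic aortas of 3 control and 3 Prdm16SMKO mice were grouped by sample titles and genotypes. The authors deposited gene TPM, with 1 column per aorta, and 1 MACS2 peak list per ChIP-Seq library. The submitters' notes name cutadapt 2.3, STAR 2.7.8a, RSEM 1.3.3, Bowtie2 2.3.4.1, MACS2 and the build GRCm38. From the peak lists the deposited fold enrichment (a ratio) and −log10 q were used as they stand. The methods give a q of 0.01, but −log10 q reaches down to 1.32, and the control library of the peak call is not given in the sources used here. Depth is not recoverable from TPM. The RNA library kit is not stated to keep strand. The IgG libraries were not analysed.

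Here log2(TPM + 0.1) was fitted with limma 3.58.1 (R 4.3.3) for every gene whose mean over the 6 aortas reached 0.5 TPM (lmFit, eBayes with trend, no covariate, Benjamini-Hochberg over 15668 genes, threshold 0.05), after the procedure was tested on simulated data. Totals, shares and ratios were compared by 2-sided exact permutation tests. Replicates are separate samples in the labels, and the labels do not say more of their origin. Positions are GENCODE M21 genes on GRCm38, and start sites are curated RefSeq transcripts matched by Entrez identifier. Python 3.11.15 with pandas 2.3.3 was used. Named chains are the 12 with the highest mean TPM, those called, those whose groups do not overlap, those with a promoter peak, and the top chain of each class. From the processing and receptor lists the called, the non-overlapping and the 3 most abundant genes are named. Cartilage markers, Acta2, Col11a2, Col4a6 and Col8a2 were named after their values were seen. The members and lists were chosen with earlier results of these data known.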

Additional observations from a re-analysis of the deposited data

How the results depend on the processing

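The calls of collagen chains rested on few aortas and on the variance model. Without 1 aorta at a time, 1 to 2 chains were called, 1 gene that processes collagen and 91 to 141 genes in all. Without the filter on TPM these were 1 chain, 1 processing gene and 110 genes, and in eBayes without a trend 0, 1 and 48. In the fit without a trend the unadjusted limma p was under 0.05 for 10 of 33 chains, beside 1753 of all 15668 genes tested. Under median ratio rescaling, quantile normalization and nuclear genes only, 4 chains were called each time, with 4, 4 and 5 processing genes and 411, 392 and 275 genes. The shift of the median gene with these was 0.00, −0.01 and −0.08. Col18a1 was called in 14 and Lox in 15 of 15 alternatives, Col3a1 and Col14a1 in 9 and Sparc in 7.

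The log2 fold change changed sign for named genes that were not called. Under median ratio rescaling it was 0.0625 for Col15a1, 0.0191 for Col19a1, 0.0099 for Itgb1 and 0.0034 for Ddr2, and under quantile normalization 0.0938 for Col15a1, 0.0729 for Itgb1 and 0.0443 for Ddr2. Without 1 aorta at a time it ran from −0.16 to 0.0033 for Col15a1, −0.0532 to 0.298 for Col27a1, −0.0824 to 0.432 for Col12a1, −0.242 to 0.0865 for Col19a1, −0.065 to 0.466 for Col23a1, −1.56 to 0.0468 for Col2a1 and −0.0134 to 0.181 for Itga1. The log2 ratio Col1a1/Col1a2 differed by −0.0248 to 0.0836. Without the 2 most abundant chains the share of other chains was 1.19 percentage points higher in Prdm16SMKO. The cause of these changes was not tested.

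The count of 12 chains with a promoter peak became 6 from 1 kb upstream to 100 bp downstream and 7 at a q of at most 1e-05. Same-numbered aortas had correlations of −0.0246, −0.07 and −0.00896 between their deviations from the group means. No pairing by replicate number was thus seen over all genes, and a pairing limited to some genes was not tested. With the replicate block 3 chains, 2 processing genes and 184 genes were called. TPM give no depth, so the precision of low chains such as Col2a1 is not known.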
